A study of Gelatoporia subvermispora and Trametes versicolor with 24 samples.

Results

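A set of 50 loci of the white-rot fungus Gelatoporia subvermispora had 3-fold or more lower RNA after vanillate than after water, out of 12203 loci that carried only an identifier. A white-rot fungus is a wood-decay fungus that breaks down lignin, the aromatic polymer of wood, and vanillate is a methoxylated aromatic acid related to lignin. The series asked how such fungi break down compounds of this kind. The cultures were monokaryons (mycelium with a single nuclear type) of strain FP-105752, grown without shaking for 12 days at 28 °C in M7 medium with 5 g/L cellobiose. All flasks, controls included, received 5 mM ascorbic acid and 1 mM alpha-tocopherol. The treated flasks got 2 pulses of vanillate 12 h apart, the first coming 30 min after these antioxidants, to a final 2 mM, and the control flasks got the same volume of water. The vanillate stock had been brought to an alkaline pH with sodium hydroxide and the water had not, per the labels' protocols, so vanillate and its vehicle cannot be told apart. Mycelium was harvested on day 13, and 3 flasks of each treatment were measured.

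The loci were chosen by the change itself, so their falls are given as a description and support nothing. Counts were first expressed as CPM, that is per flask total after TMM scaling, which limits the weight of a few abundant genes. Then the mean of the vanillate flasks plus 1 was divided by the mean of the water flasks plus 1. A locus was kept where this ratio was at or under 1 in 3, and fold values below are its inverse. White-rot fungi attack lignin with secreted oxidative enzymes, among them heme peroxidases and laccases, and the smaller aromatic acids that are released can be taken up and broken down inside the cell. Whether any of the 50 loci serves these steps is not known here: the files pair no identifier with a product, and no function is stated for one. RNA came from whole mycelium, in which fewer cells of a kind and less RNA per cell cannot be told apart.

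Each flask label had 2 libraries, which were taken as repeats of 1 flask from their agreement and summed. Flask totals were 6119420 to 12333618 gene counts and library totals 2865064 to 7160920. The 2 libraries of a flask differed little more than sampling noise (chi-square over degrees of freedom of 1.012 to 1.066, in 6 flasks), whereas flasks of 1 group differed more (2.992 to 8.962), so a flask was counted once. Genes took 78.5% ± 1.82 (SD, n = 3) of reads in water and 74.1% ± 3.53 with vanillate. Reads of low alignment quality made up 12.3% of vanillate flask 1 and 4.04% to 6.74% of the other flasks; the part of this in the results was not tested.

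The 50 loci together took a small share of reads with vanillate and a larger one in water. In water they took 1.56%, 1.73% and 2.09% of all gene counts in flasks 1, 2 and 3, and with vanillate 0.407%, 0.422% and 0.403%. Water flask 3 was the highest, and the vanillate flasks lay close together, far below the lowest water flask. The means were 1.79% ± 0.271 and 0.411% ± 0.0104 (SD, n = 3). CERSUDRAFT_87995 and CERSUDRAFT_97438 held more than the other 48 in water, with 0.968% ± 0.19 against 0.824% ± 0.0816, and their share with vanillate was 0.204% ± 0.00955 against 0.207% ± 0.0152. In water flasks 1, 2 and 3 these 2 took 0.803%, 0.925% and 1.18%, and the other 48 took 0.754%, 0.805% and 0.914%. The difference between water flasks was thus larger in these 2. With vanillate the other 48 took 0.212%, 0.218% and 0.189%. These are shares of reads and were not divided by gene length, which the files do not give, so they do not rank loci by number of transcripts.

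**Figure D1:**
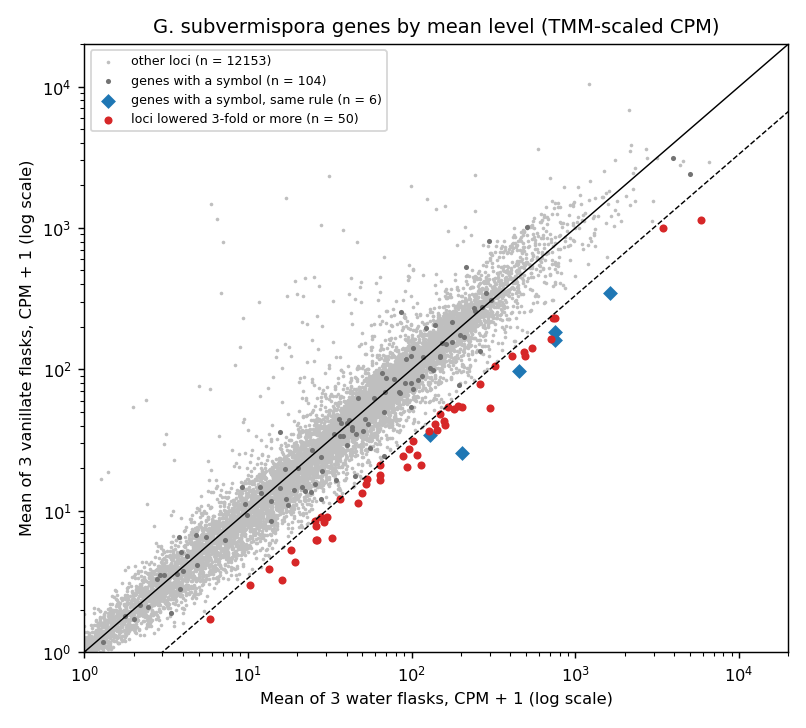
Each point is a gene of G. subvermispora, with the mean of 3 water flasks on the x axis and of 3 vanillate flasks on the y axis, both as CPM plus 1 on log scales. The 50 loci (red) lie on or below the dashed 3-fold line by construction, at water means from 4.887 to 5837 CPM, and the 6 genes with a symbol that meet the same rule (blue diamonds) lie among or below them.

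Falls of this size covered the range of levels in water. Of the 50 loci, 2 had at least 1000 CPM in water, 23 had 100 to under 1000 CPM, 23 had 10 to under 100 CPM and 2 were under 10 CPM. As shares of all detected loci at those levels these were 3.28% of 61, 0.924% of 2489, 0.426% of 5402 and 0.0647% of 3090. The 1 CPM added to both means raises the ratio of low loci and holds down their fold, so the last share is set in part by the rule. The median water level of the 50 was 97.8 CPM, against 41.5 CPM over all loci tested and 46.8 CPM over the 238 loci that were 2- to 3-fold lower. The rule divides by the water mean, so a higher level in water is in part set by the choice. With vanillate the median of the 50 was 23.7 CPM. The lowest fall was 3.005-fold, an end set by the rule, the median was 3.49-fold and the highest 5.66-fold. A total of 26 were under 3.5-fold, 12 reached 4-fold and 5 reached 5-fold.

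CERSUDRAFT_104356 had the lowest ratio of vanillate to water. It stood at 319.1, 213.2 and 364.2 CPM in water flasks 1, 2 and 3 and at 52.3, 50.3 and 53.4 CPM with vanillate. The vanillate flasks were nearly equal and the water flasks were not, yet the groups were far apart. Its fold was 5.66 and its log2 fold change in the edgeR fit was -2.52 (SE 0.22). CERSUDRAFT_127549, the next, fell within a narrower spread: 112.0, 101.7 and 122.8 CPM in water against 21.6, 17.8 and 20.6 CPM with vanillate, a log2 fold change of -2.51 (SE 0.09).

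The locus with the most reads was also among the most lowered. CERSUDRAFT_87995 was at 5450, 5603 and 6458 CPM in water and at 1130, 1042 and 1246 CPM with vanillate. Its own share of counts was 0.609% ± 0.0495 in water and 0.109% ± 0.0107 in vanillate flasks (SD, n = 3). The groups did not come near each other, and the log2 fold change was -2.36 (SE 0.10). CERSUDRAFT_97438, second by reads, had 2222, 3155 and 4954 CPM in water and 907.2, 1107 and 960.9 CPM with vanillate. Its water flasks differed by more than 2-fold, and its SE was larger for a smaller change (-1.79, SE 0.33).

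The 2 other loci past 5-fold were much lower in level. CERSUDRAFT_93761 went from 31.4 ± 3.26 to 5.45 ± 1.20 CPM and CERSUDRAFT_80123 from 15.2 ± 3.61 to 2.22 ± 0.81 CPM (SD, n = 3). The latter rested on 8, 35 and 22 reads in the vanillate flasks, so that counting error is a large part of its spread. Between 4- and 5-fold lower stood 7 loci. They ran from CERSUDRAFT_126869, at 93.2 ± 10.1 against 19.5 ± 1.96 CPM, to CERSUDRAFT_54929, at 24.9 ± 2.17 against 5.20 ± 1.27 CPM. Among them were CERSUDRAFT_90765 at 4.49-fold, CERSUDRAFT_120136 and CERSUDRAFT_59854 both at 4.33-fold, and CERSUDRAFT_75101 at 4.28-fold.

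Several abundant loci were even across the water flasks. CERSUDRAFT_136948 had 549.1, 538.0 and 536.0 CPM in water, a coefficient of variation of 1.31%, and 152.8, 143.7 and 124.0 CPM with vanillate. CERSUDRAFT_118953 had 761.6, 727.8 and 755.9 CPM in water and 237.5, 241.7 and 215.1 CPM with vanillate. CERSUDRAFT_79675 had 473.9, 499.0 and 496.7 CPM against 119.2, 115.4 and 132.8 CPM. In these 3 the difference between treatments was many times the difference between flasks. CERSUDRAFT_59854 likewise was at 693.7, 735.2 and 690.1 CPM in water and 170.8, 171.6 and 144.5 CPM with vanillate. With vanillate the coefficient of variation of these 4 was 6.19% to 10.5%. CERSUDRAFT_159757 had 322.6 ± 17.6 CPM in the water flasks against 105.1 ± 5.17 CPM (SD, n = 3). CERSUDRAFT_113480 was less even in water, at 484.0 ± 102.4 CPM, against 131.8 ± 10.3 CPM with vanillate.

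At the low end, 3 loci rested on few reads. CERSUDRAFT_138007 was at 6.18, 4.20 and 4.28 CPM in water and 0.51, 0.60 and 1.04 CPM with vanillate. The vanillate values came from 3, 7 and 10 reads, 20 in all, and no flask of one group reached the other. Its fitted log2 fold change was -2.70 (SE 0.31), larger than the 3.43-fold of the ratio because of the 1 CPM added there. CERSUDRAFT_126579 went from 9.34 ± 2.03 to 2.00 ± 0.12 CPM and CERSUDRAFT_159814 from 12.4 ± 1.66 to 2.86 ± 0.60 CPM (SD, n = 3).

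**Figure D2:**
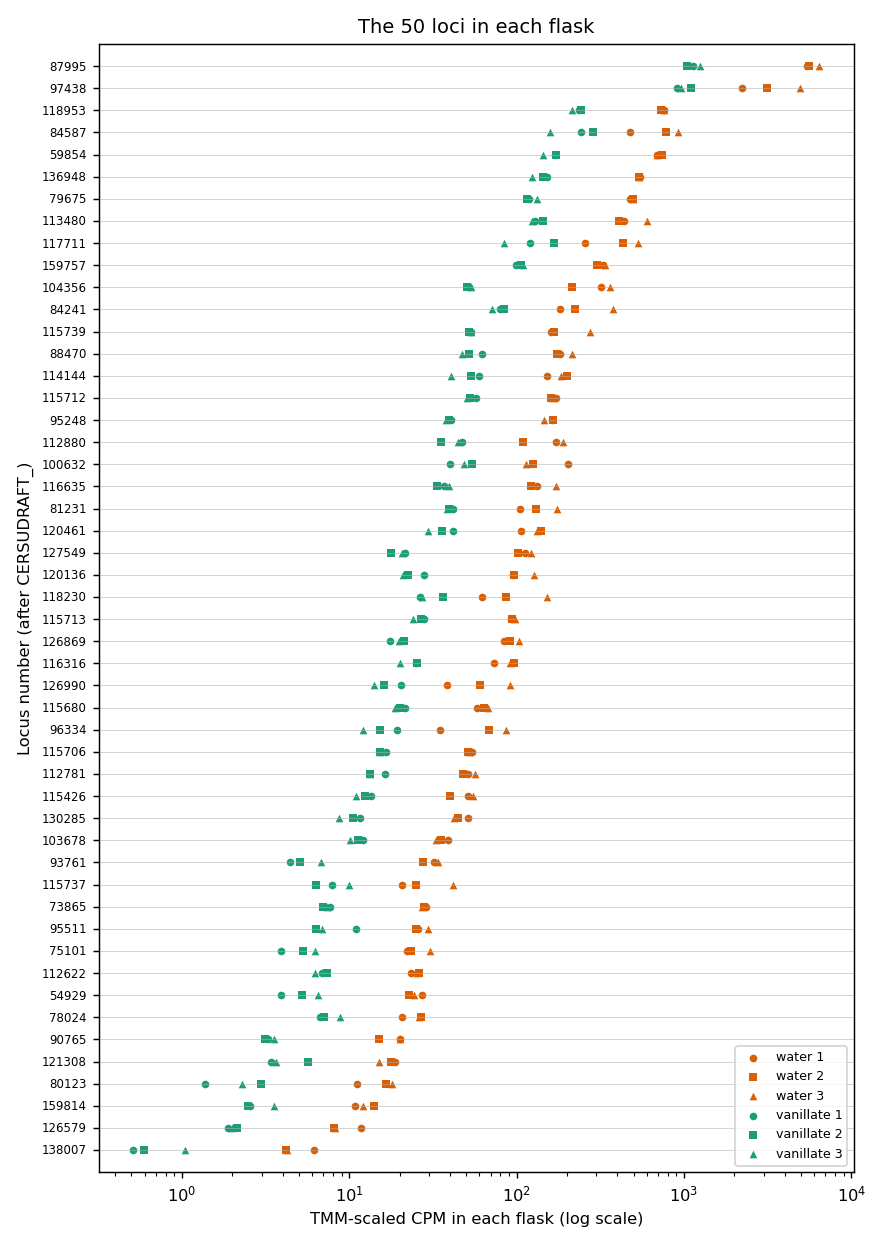
The CPM of each of the 50 loci (rows, ordered by mean in water) is shown for every flask on a log scale, water in orange and vanillate in green, with a marker shape for each flask number. The colours do not overlap in any row, and the orange markers of some rows, such as those of CERSUDRAFT_97438 and CERSUDRAFT_118230, spread over more than a 2-fold range.

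All 50 loci passed the filter on low counts, and all 50 were called lower by edgeR's quasi-likelihood test at a Benjamini-Hochberg adjusted p under 0.05, where 25.9% of the 10318 genes tested were called lower. The vanillate flasks lay below the water flasks in all 50, as they did in 30.2% of genes tested. Both counts follow from the choice of the loci, and nothing is read from them. CERSUDRAFT_84587, CERSUDRAFT_117711, CERSUDRAFT_118230, CERSUDRAFT_96334 and CERSUDRAFT_126990 each lost the call on leaving out at least 1 flask other than water flask 1 (edgeR adjusted p of 0.0546 to 0.0948). The lowest water flask was 1.54 to 4.71 times the highest vanillate flask, with a median of 2.97 times. The median log2 fold change was -1.91, beside -0.01 over all genes tested, and SEs ran from 0.07 to 0.43.

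Just inside the 3-fold limit stood CERSUDRAFT_103678, CERSUDRAFT_78024, CERSUDRAFT_115680 and CERSUDRAFT_159757, at 3.005-, 3.02-, 3.04- and 3.05-fold. Just outside were CERSUDRAFT_97211, CERSUDRAFT_83458, CERSUDRAFT_117296 and CERSUDRAFT_115929, at 2.99-, 2.99-, 2.98- and 2.95-fold. CERSUDRAFT_103678 went from 35.6 ± 2.995 to 11.2 ± 1.02 CPM and CERSUDRAFT_83458 from 43.6 ± 2.25 to 13.9 ± 3.16 CPM (SD, n = 3). Nothing in the values separates the 2 sides of the limit, and the number 50 depends on where it was set.

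The size of falls chosen by the rule was also read in flasks that had not chosen the loci. The rule was applied to the 4 flasks of 2 replicate numbers, and the loci it gave were read in the remaining water and vanillate flask; with 1 flask a side there is no test. Without number 1 the rule gave 71 loci, which were a median of 2.55-fold lower in the flasks of number 1, and 27 of them were again at or past 3-fold. Among all loci tested, 0.401% were at or past 3-fold in that pair. At or past 2-fold were 51 of the 71, against 2.5% of all loci tested. The range was wide, from 6.06-fold lower to CERSUDRAFT_115038, which was no lower at all (0.98-fold). Without number 2 it gave 64 loci, a median of 3.11-fold lower in number 2, with 35 past 3-fold against 0.48% of all loci tested, and 63 past 2-fold against 3.05%. Without number 3 it gave 39 loci, a median of 4.26-fold lower in number 3, with 33 past 3-fold against 1.19% and 39 past 2-fold against 4.95%. The 3 medians are over different sets of loci, each chosen on other flasks, so they are not like for like. Over all loci tested, the share past 3-fold was also lowest in the flasks of number 1 and highest in those of number 3. The least lowered of the 39 was 2.33-fold lower in number 3. Water and vanillate flasks were matched here by number only.

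**Figure D3:**
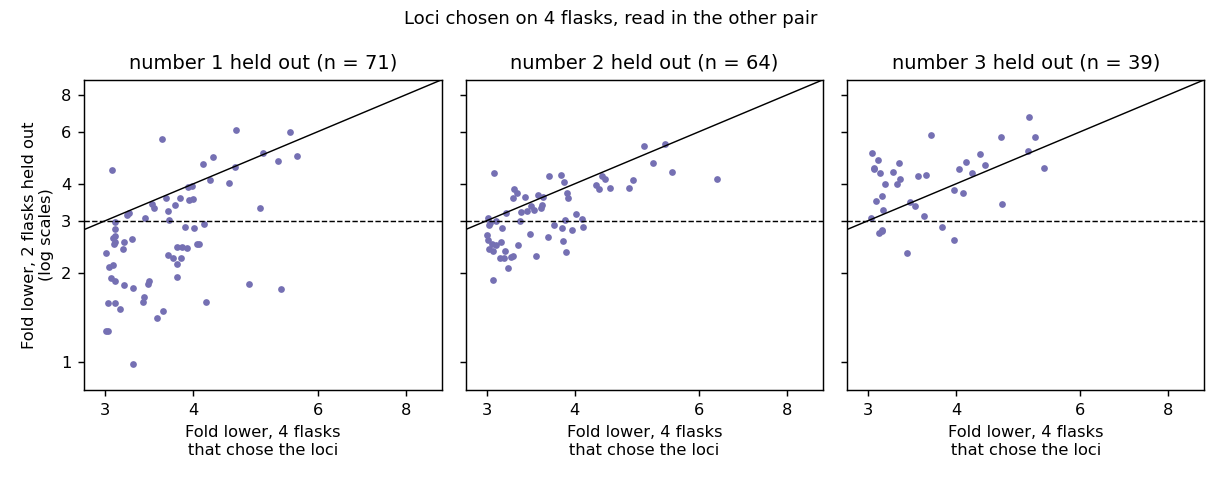
Each point is a locus chosen on 4 flasks, with its fold lower in those flasks on the x axis and in the water and vanillate flask left out on the y axis (both log scales); the solid line marks equal values and the dashed line 3-fold. Most points lie below the solid line when number 1 is left out (median 2.55-fold) and many lie above it when number 3 is left out (median 4.26-fold).

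The spread between the water flasks is given as a description only, since the rule used the mean of the same flasks and favours a locus with 1 high water flask. Without water flask 3 the rule kept 38 of the 50. The coefficient of variation over the 3 water flasks had a median of 13.7% in the 50 loci, 12.6% in the 238 loci 2- to 3-fold lower and 7.04% in all 8841 other loci tested at or above the lowest level of the 50. Only the 50 were left out of these 8841, called the others below, so lowered and raised loci at such levels are among them. It was over 25%, a limit set after the values were seen, in 13 of the 50 (26.0%), in 13.4% of the 2- to 3-fold loci, in 10.5% of the 124 loci 3-fold or more higher with vanillate and in 2.74% of the others. With vanillate the median was 10.5% in the 50, 11.8% in the 2- to 3-fold loci and 6.13% in the others, and low loci add counting error to it. Water flask 3 was the highest of the water flasks in 28 of the 50 (56.0%), in 56.3% of the 2- to 3-fold loci, in 56.5% of the loci 3-fold or more higher and in 35.9% of the others, so loci that moved in either direction showed it. Water flask 3 also had the most unaligned reads of the water flasks, 10.0% against 7.80% and 8.50%; the part of this in the spread was not tested.

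The 13 loci with a spread over 25% mostly shared a direction. In 12 of them water flask 3 was the highest, and in 10 of them water flask 1 was the lowest. CERSUDRAFT_118230, which varied most, was at 62.5, 86.3 and 153.0 CPM in water and 26.6, 36.1 and 27.3 CPM with vanillate. CERSUDRAFT_126990 was at 38.4, 60.9 and 90.8 CPM in water and 20.4, 16.1 and 13.98 CPM with vanillate. In both, even the lowest water flask was above every vanillate flask. CERSUDRAFT_100632 was the exception, with 202.4 CPM in water flask 1 and 125.0 and 114.6 CPM in flasks 2 and 3, against 39.9, 54.0 and 48.5 CPM with vanillate.

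Some of these loci kept a nearly fixed ratio to one another in every flask. Between treatments the rule itself limits how far such ratios move, since all 50 loci were chosen for a fall of 3-fold or more. The largest fall happened to be 5.66-fold. The flasks of 1 group are thus the ones to compare. CERSUDRAFT_84587 was at 474.3, 779.7 and 918.0 CPM in water and 243.4, 287.4 and 158.3 CPM with vanillate, and CERSUDRAFT_117711 at 258.2, 430.9 and 530.1 CPM and 119.6, 167.8 and 84.0 CPM. The ratio of CERSUDRAFT_117711 to CERSUDRAFT_84587 was 0.544, 0.553 and 0.577 in water and 0.491, 0.584 and 0.531 with vanillate. Both were thus lowest in water flask 1 and, with vanillate, highest in flask 2 and lowest in flask 3. This pair had the steadiest ratio of the 78 pairs among the 13 loci, with an SD of 0.09 on the log2 scale over 6 flasks, where the median pair had 0.35. That SD also takes in the difference between treatments. Over all 1225 pairs of the 50 loci, the 13 included, the median was 0.36. The SD is not scaled to the spread of each locus, and the 13 were picked for a wide spread in water. The 2 medians therefore do not compare how closely loci moved together.

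CERSUDRAFT_97438 paired in the same way with CERSUDRAFT_118230 and CERSUDRAFT_84241. Its ratio to CERSUDRAFT_118230 was 35.6, 36.6 and 32.4 in water and 34.2, 30.6 and 35.1 with vanillate. Its ratio to CERSUDRAFT_84241 was 12.3, 14 and 13.1 in water and 11.4, 13.2 and 13.4 with vanillate. A further pair was CERSUDRAFT_96334 and CERSUDRAFT_126990, with ratios of 0.909, 1.12 and 0.949 in water and 0.950, 0.947 and 0.866 with vanillate. These pairs were picked from all 78 by their values, the flasks of a pair share library and depth, and reads could be split between near-identical copies, which the files do not show. They are a description, with no test.

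**Figure D4:**
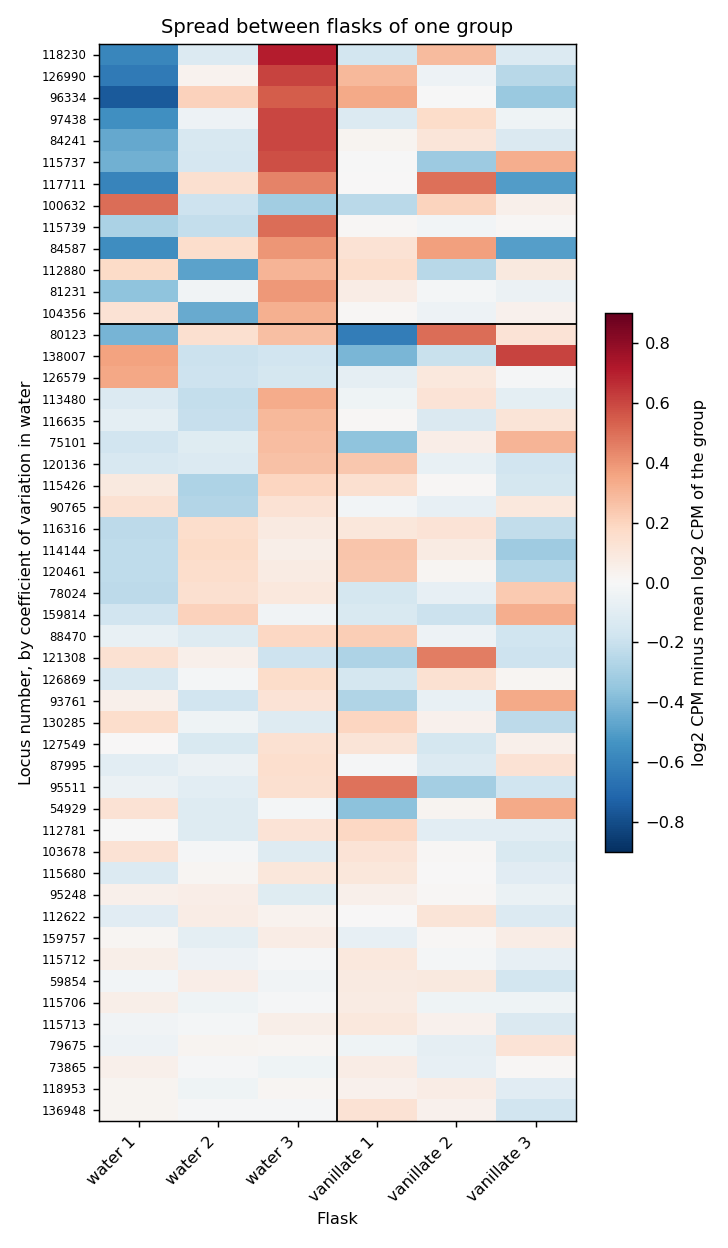
The colour gives log2 CPM in a flask minus the mean log2 CPM of its group, for the 50 loci (rows, ordered by coefficient of variation in water) and 6 flasks (columns). Above the horizontal line are the 13 loci with a coefficient of variation over 25% in water, of which 12 are highest in water flask 3 and 10 lowest in water flask 1.

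Identifier numbers of some loci lay close together. Within 10 numbers of another of the 50 were 5 loci (10.0%), as were 1.73% of all numbered loci: CERSUDRAFT_115706, CERSUDRAFT_115712 and CERSUDRAFT_115713, and CERSUDRAFT_115737 and CERSUDRAFT_115739. The first 3 were even, at 52.6 ± 1.69, 165.7 ± 6.02 and 94.99 ± 2.93 CPM in water and 15.8 ± 0.74, 53.5 ± 3.23 and 26.2 ± 2.09 CPM with vanillate (SD, n = 3). The latter 2 were both highest in water flask 3, at 41.9 and 275.3 CPM, against 20.8 and 25.2 CPM for CERSUDRAFT_115737 and 159.8 and 167.6 CPM for CERSUDRAFT_115739 in flasks 1 and 2. Whether the numbers follow positions on a chromosome is not given in the sources used here.

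Genes with a symbol could not be among the 50, but 6 of 110 met the same rule. They were LiP2 and MnP2, by their symbols a lignin and a manganese peroxidase, which are secreted heme enzymes that oxidise lignin, and CsPh12, CsPh2, CsPh3 and CsPh5, whose function is not stated in the files. Their folds ran from 3.73 for CsPh5 to 8.01 for CsPh12, so that CsPh12 had a larger fold than any of the 50 loci. The summed share of these 6 genes was 0.407% ± 0.0258 in water and 0.0808% ± 0.00104 in vanillate flasks (SD, n = 3). CsPh3 had 607.3, 774.9 and 859.7 CPM in water, with flask 1 the lowest and flask 3 the highest, as in many of the variable loci. CsPh2 and CsPh5 had the same order. CsPh12 had the reverse order, and LiP2 and MnP2 were lowest in flask 2 and highest in flask 3.

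By the same measure 124 loci of G. subvermispora were 3-fold or more higher with vanillate. In Trametes versicolor, the other white-rot fungus of the series (strain FP-101664, grown 5 days and treated in the same way), 17 of 14528 loci were 3-fold or more lower and 261 were 3-fold or more higher. The fungi differed in culture age, and their loci were not matched to each other, so the counts stand side by side without a test.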

How the data were processed

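RNA was measured by single-read sequencing of stranded total RNA libraries from 12 libraries (6 flasks) of G. subvermispora, and likewise of T. versicolor. The authors deposited raw read counts per gene. FastQC, STAR and HTSeq are named in the submitters' processing notes; no source used here gives the builds, the annotation or any strand setting of the counting. Reads assigned to no gene (20.1% to 30.0% per flask) were left out. Reads aligned to more than 1 place were counted as 0 in every library, so near-identical copies are uncertain, as are overlapping genes. The 2 libraries of a flask were summed. No label says that flasks had seed cultures of their own, so errors and p-values cover only the spread between these flasks. Reads carry no molecular identifiers.

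All 10318 genes passing filterByExpr (min.count 10, min.total.count 15) were fitted with edgeR 4.0.16 in R 4.3.3 (TMM, quasi-likelihood F test, two-sided, no block, Benjamini-Hochberg). SEs were derived as the size of the log2 fold change over the root of its F statistic. DESeq2 1.42.0 was an alternative. The procedure was tested on simulated data that gave every gene the same spread between flasks beyond counting error. That trial does not cover the loci of wide spread. The loci, lists and rules were chosen with earlier results of these data known. Loci named were the 10 lowest ratios, the 10 highest and 3 lowest in water, 4 on each side of the limit, the 2 most variable of at least 20 CPM in water, and genes with a symbol by the same rule. Loci named for a fixed ratio, an even level, a close identifier or a lost call were chosen after their values were seen. No reference sequence was used, and no match between the fungi was made.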

Additional observations from a re-analysis of the deposited data

How the results depend on the processing

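The number of loci depended on the scaling and on the constant in the ratio. With library totals in place of TMM it was 79, the 50 included, and the median of all genes tested moved to -0.137 from -0.011 on the log2 scale. With 0.1 CPM added in place of 1 it was 79, again with all 50, and with 5 CPM added it was 30. It was 49 with DESeq2 size factors, 57 and 53 with the first or second library of each flask, of which 46 and 48 were among the 50, and 40 to 63 on leaving out a flask. The lowest of these, 40, came without water replicate 3 and the highest, 63, without water replicate 1. The median log2 ratio of the 50 was -1.80. It was -1.93 with library totals, -1.87 with the first library, -1.90 and -1.66 with 0.1 and 5 CPM added, and -1.93 to -1.76 on leaving out a flask. In held-out flasks the mean of the 3 medians was -1.69, and with number 3 held out the median was -2.09.

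The call as lower was kept by 50 of 50 with library totals, DESeq2 size factors, either library alone, no filter, the DESeq2 Wald test and without water replicate 1. It was kept by 46 without water replicate 2, 48 without water replicate 3, 47 without vanillate replicate 1 or 2 and 46 without vanillate replicate 3, a range of 46 to 50. The calls lost were those of CERSUDRAFT_84587, CERSUDRAFT_117711, CERSUDRAFT_118230, CERSUDRAFT_96334 and CERSUDRAFT_126990, all among the 13 variable loci (edgeR adjusted p of 0.0546 to 0.0948). A filter of 5 CPM in 3 flasks left out CERSUDRAFT_138007, giving 49. Deviations of same-numbered flasks correlated at -0.03, 0.04 and -0.17 over genes, so the numbers were not taken as pairs; with a replicate block 46 of 50 were called.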
